A study of Mus musculus with 6 samples.

Results

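Cytochrome P450 enzymes of families 1 to 4 were examined in mouse colonic crypts, the epithelial glands of the colon. Members were the array's probe sets whose annotation gave exactly 1 gene symbol, beginning with Cyp1, Cyp2, Cyp3 or Cyp4 and a letter. There were 58 such probe sets for 49 genes, of 22626 probe sets in all without controls. Family 1 had 5 of them, family 2 had 36, family 3 had 5 and family 4 had 12. The rule used names only and no measured value, but it was set with earlier results of these data known. A further 4 probe sets carried several symbols with 1 or more from these families and were left out.

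P450 enzymes are heme proteins of the endoplasmic reticulum that insert 1 oxygen atom from molecular oxygen into lipophilic substrates, with electrons passed on by a reductase or by cytochrome b5. Families 1 to 3 are best known for the oxidation of drugs, plant compounds and combustion products, and family 4 for hydroxylation of fatty acids and of leukotrienes at the far end of the chain. In the gut epithelium these enzymes meet compounds from the diet and from bacteria, and several turn arachidonic acid into epoxides or hydroxy acids. Many lie in tandem clusters of near-identical genes, so that a probe set may also bind the transcript of a neighbour, above all where its name ends in _s_at or _x_at.

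RNA was measured on 6 Affymetrix arrays, 2 in each of 3 groups, each array from 2 pooled male mice heterozygous for the Lgr5-lacZ allele, which places a lacZ reporter at the stem cell gene Lgr5. Control crypts came from the colons of untreated mice aged 6 to 8 weeks, and DSS crypts from mice of that age on day 2 of 1% dextran sulfate sodium in their drinking water. Tumor crypts came from 12 pooled adenomas an array. Those mice had received azoxymethane (AOM), a colon carcinogen, at 12.5 mg per kg and an age of 6 to 8 weeks, then from day 5 on 3 cycles of 2, 1.5 and 1.0% DSS, each of 5 days followed by 14 days of water. They were sampled 90 days after AOM. Age, the AOM dose, the DSS cycles and tumor therefore cannot be told apart. The labels call the replicates of a group independent biological ones. Every group carried the reporter allele.

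Values are MAS5 signal intensities, an arbitrary linear unit per probe set, with array medians of 94.2 to 131. A change is a difference of log2(intensity + 17.7) between group means with its standard error (SE), on 2 arrays a group, and a scale that understates changes of low values. Called means an adjusted p under 0.05 from limma, fitted on the 12146 probe sets that exceeded the median of an array on 2 or more arrays. Intensities of different probe sets cannot be set against each other. Epithelial markers were high on every array: the summed intensity of 10 genes lay between 82024 and 107909. Of 7 mature colonocyte genes 6 fell in tumor crypts, with sums of 37463 and 46375 on control, 30727 and 36055 on DSS, and 11597 and 8165 on tumor arrays. Leukocyte genes summed to 572 and 1218 on control, 416 to 1413 on DSS and 3230 and 7539 on tumor arrays. Most of the tumor sums was Lyz2, at 2755 and 5154 there and 120 and 460 on control arrays. It was the only 1 of 4 tested that was called higher. Ptprc, Cd52 and Csf1r were not called, at log2 changes of -0.03, 0.72 and 1.42. Of 6 endothelial genes 0 passed the filter. Fibroblast genes summed to 963 on tumor replicate 1 and 6297 on tumor replicate 2, against 2132 to 4756 on the other arrays. Hepatocyte genes, since many P450s are liver enzymes, summed to 7902 and 7602 on control, 6925 and 6751 on DSS and 3385 and 3468 on tumor arrays. Most of each sum was Ttr, at 7770 and 7421 on control and 3133 and 2676 on tumor arrays, so the sums follow that gene. Ttr fell, while Alb rose from 41.9 and 70.7 on control to 175 and 640 on tumor arrays. The other 4 of 6 were under the filter. Smooth muscle genes summed to 338 and 994 on tumor arrays and 574 to 2944 on the others. For actin, the 3′ over the 5′ probe set, which reflects RNA integrity, gave log2 ratios of 0.95 and 1.04 on tumor arrays and 1.20 to 1.63 on the others. The part of these differences in the results was not tested, and in tissue pools fewer cells of a type and less RNA per cell cannot be told apart.

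Of the 58 member probe sets, 22 (for 19 genes) lay above the array median on at least 2 arrays, and these were tested. Across all probe sets that share was 53.7%. On all 6 arrays 9 members lay above the median, where the share of all probe sets was 43.7%. By array the count was 21 and 22 on the control arrays, 19 and 21 on the DSS arrays, and 15 and 10 on the tumor arrays. Of the 22, 9 were above the median on no tumor array and 1, for Cyp2b10, on tumor arrays only. The other 36 members had a median intensity of 7.69, with 33 of them under the median on all 6 arrays and 3 above it on 1 array.

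**Figure D1:**
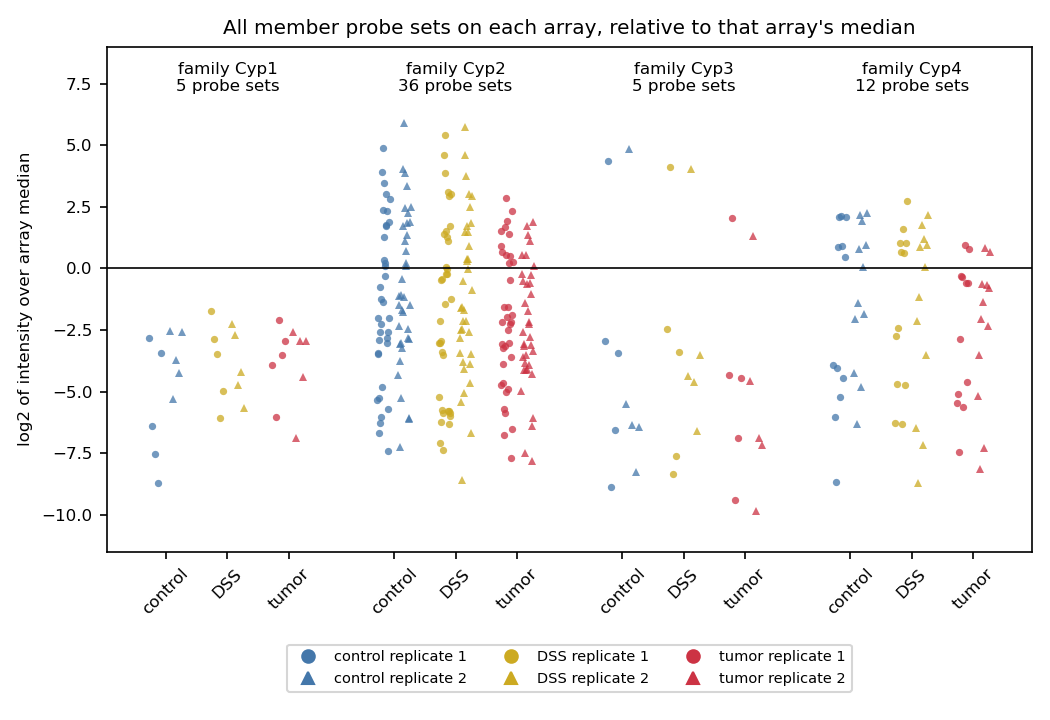
All 58 member probe sets by family on each of the 6 arrays, as log2 of the intensity over that array's median (y axis, line at the median), with replicate 1 as circles and replicate 2 as triangles. The 5 probe sets of family 1 lay under the median on every array, and the top of families 2, 3 and 4 sat lower on the tumor arrays.

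Most of the P450 genes above the median were lower in tumor crypts. Of the 22 tested probe sets, 19 (for 17 genes) fell against control, 1 rose (Cyp2b10) and 2 were not called. Across all probe sets tested, 8.33% were called lower and 11.2% higher, or 13.7% and 7.13% with each array centred on its median, where the member calls were the same. The median log2 change was -1.65 over the 22 and 0.03 over all tested. Of the 22, 9 passed the filter through control and DSS arrays alone, so lower tumor values were favoured by the filter. The counts over the 22 are therefore a description. Without any filter 19 of all 58 members were called lower and 3 higher, against 3.06% and 5.1% of all probe sets. That fit gained Cyp2c70 and a second Cyp2d22 probe set among the lower and lost Cyp4f13 (adjusted p = 0.0533) and 1 Cyp4v3 probe set (adjusted p = 0.0721). Among the 9 members above the median on all 6 arrays, 8 fell and 0 rose, against 8.03% and 8.66% of all such probe sets. Tumor and control arrays did not overlap for any of the 22: 20 were lower on both tumor arrays and 2 higher, where 27.1% and 32.8% of all probe sets did so.

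**Figure D2:**
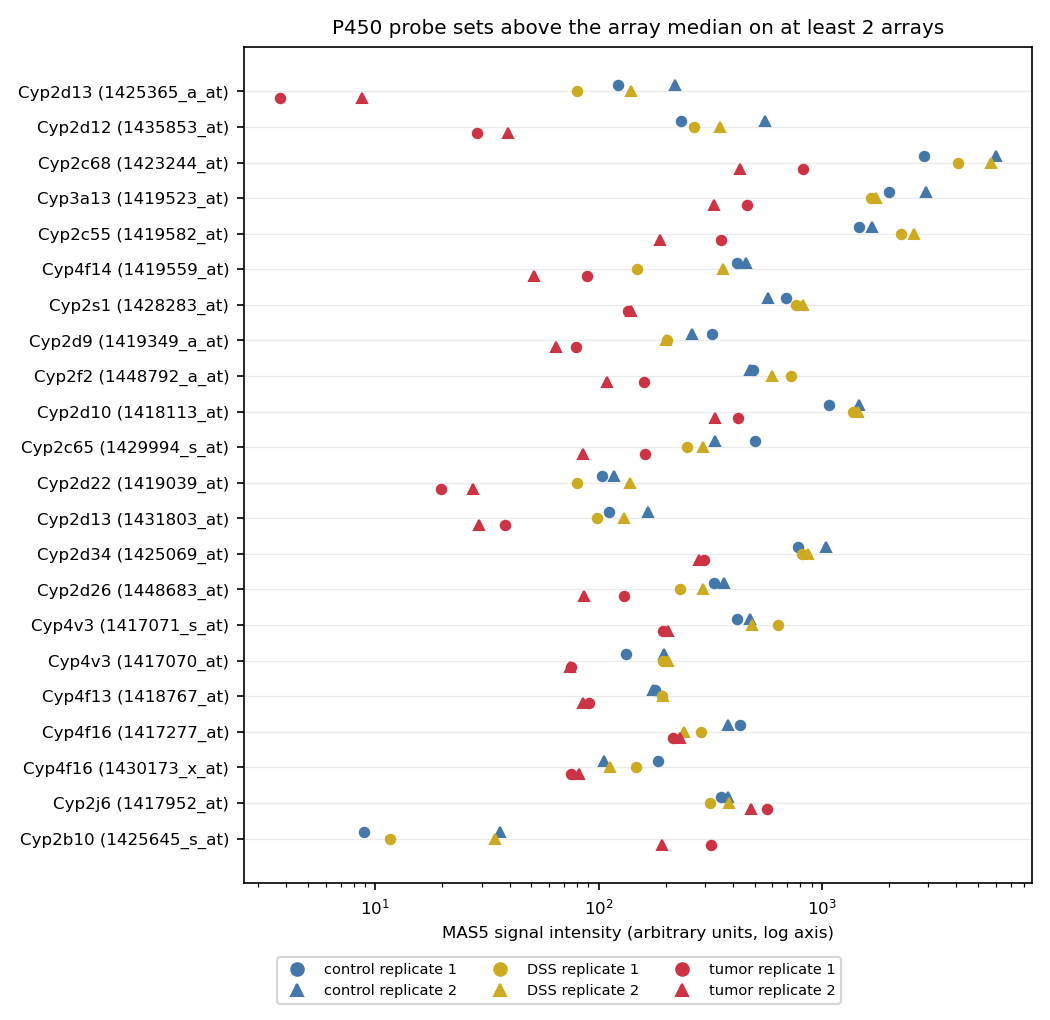
MAS5 signal intensity (log axis) of the 22 tested member probe sets on each of the 6 arrays, with the largest falls in tumor crypts at the top. Both tumor arrays (red) lie left of both control arrays (blue) for all but Cyp2j6 and Cyp2b10.

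The Cyp2c genes, whose mouse enzymes oxidise arachidonic acid and retinoids, were above the median for 3 of 11 probe sets, and all 3 fell in tumor crypts. Cyp2c55, an arachidonic acid hydroxylase, measured 1471 and 1678 on the control arrays, 2273 and 2594 on the DSS arrays and 354 and 189 on the tumor arrays. DSS arrays were highest and tumor arrays lowest, without overlap. Its tumor change was -2.52 ± 0.27 (SE, adjusted p = 0.000841). Cyp2c68 measured 2867 and 6035 on the control arrays, 4081 and 5745 on the DSS arrays and 822 and 432 on the tumor arrays. Control and DSS arrays overlapped, and both tumor arrays lay far below them. The change was -2.77 ± 0.40 (SE, adjusted p = 0.00299). The values of Cyp2c65 were 503 and 331 on the control arrays, 249.8 and 294 on the DSS arrays and 161 and 84.9 on the tumor arrays. Here the tumor arrays were again lowest, and its probe set is of the _s_at kind. The change was -1.65 ± 0.31 (SE, adjusted p = 0.0093). For each of these genes tumor replicate 2 was lower than tumor replicate 1, and so it was for 13 of the 19 probe sets that fell. The remaining Cyp2c probe sets were under the median on every array. Among them Cyp2c38 measured 41.2 and 74.4 on the control arrays, 70.3 and 75.1 on the DSS arrays and 37.7 and 50.1 on the tumor arrays, with control values overlapping those of both other groups. Cyp2c70, a bile acid hydroxylase of mouse liver, measured 37.7 and 45.7 on the control arrays, 34.5 and 24.4 on the DSS arrays and 3.40 and 7.65 on the tumor arrays and was called lower only when no filter was set, at -1.36.

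The upstream sequences of the Cyp2c genes and of Cyp2b10 are shown because they were called in opposite directions in tumor crypts, although the Cyp2b10 probe set was tested through the tumor arrays alone. They hold 250 bases before the start, from RefSeq on GRCm38.p6, and capitals mark matches on either strand to 5 motifs. The motifs, chosen with these results known, were TATAAA (the TATA box), AGGTCA (a half-site of nuclear receptors), GCGTG (the core bound by the aryl hydrocarbon receptor), GTTAAT (a half-site of HNF1) and CAAAGTCCA (an element of HNF4).
Cyp2c55 (chr19:39006769-39007018, plus strand): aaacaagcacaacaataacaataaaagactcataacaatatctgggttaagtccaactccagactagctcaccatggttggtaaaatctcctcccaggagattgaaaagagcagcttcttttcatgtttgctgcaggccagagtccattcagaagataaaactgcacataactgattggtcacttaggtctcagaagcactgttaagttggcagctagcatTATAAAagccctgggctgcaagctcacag
Cyp2c65 (chr19:39060756-39061005, plus strand): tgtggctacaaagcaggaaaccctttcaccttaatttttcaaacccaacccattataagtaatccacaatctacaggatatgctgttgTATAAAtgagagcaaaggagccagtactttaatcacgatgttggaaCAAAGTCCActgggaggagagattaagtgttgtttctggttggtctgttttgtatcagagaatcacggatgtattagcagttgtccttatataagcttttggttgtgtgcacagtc
Cyp2c68 (chr19:39741102-39741351, minus strand): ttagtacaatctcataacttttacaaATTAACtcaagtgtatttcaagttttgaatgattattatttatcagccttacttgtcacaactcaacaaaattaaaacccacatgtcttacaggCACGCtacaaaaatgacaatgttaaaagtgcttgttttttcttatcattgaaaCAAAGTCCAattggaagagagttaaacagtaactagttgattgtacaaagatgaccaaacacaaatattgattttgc
Cyp2b10 (chr7:25897408-25897657, plus strand): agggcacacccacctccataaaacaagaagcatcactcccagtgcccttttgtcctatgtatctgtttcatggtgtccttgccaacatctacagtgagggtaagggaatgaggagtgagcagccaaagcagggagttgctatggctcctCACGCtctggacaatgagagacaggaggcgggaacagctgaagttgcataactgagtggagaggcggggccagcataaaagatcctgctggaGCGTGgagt
The match in Cyp2c55 is a TATAAA 29 to 24 bases before the start. In Cyp2c65 and Cyp2c68 CAAAGTCCA stands 116 to 108 and 77 to 69 bases before the start, in each case on the strand of the gene. Cyp2c65 also holds a TATAAA, farther up than that of Cyp2c55, at 162 to 157 bases before the start. Cyp2c68 also holds a GCGTG and a GTTAAT, both on the opposite strand. Cyp2b10 holds GCGTG on both strands. No matches overlap. Promoter entries existed for 15 of the 19 genes tested. Of the 13 of these that fell, 2 held CAAAGTCCA, 5 TATAAA, 4 GCGTG, 3 GTTAAT and 1 AGGTCA. These are counts of genes with a match in any entry, and Cyp4f14 had 4 entries where the others had 1. Of all 32851 promoter entries, 0.384% held CAAAGTCCA, 12.4% TATAAA, 28.2% GCGTG, 6.43% GTTAAT and 14.0% AGGTCA. Cyp2c65 and Cyp2c68 are paralogs, so their matches are not independent. The 5 genes with TATAAA were Cyp2c55, Cyp2c65, Cyp2d9, Cyp2d10 and Cyp2d26, all Cyp2c or Cyp2d paralogs, so the same holds for them. A match is no evidence of binding.

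The Cyp2d genes are a tandem cluster whose human counterpart CYP2D6 oxidises many drugs. Of 9 probe sets 8, for 7 genes, were tested, and all 8 fell in tumor crypts, by log2 changes of -1.56 to -2.94. The tested ones of Cyp2d9, Cyp2d12, Cyp2d13 and Cyp2d22 were above the median on no tumor array. They passed the filter through control and DSS arrays alone, so their falls were favoured by the filter. Cyp2d10 measured 1082 and 1470.2 on the control arrays, 1384 and 1448 on the DSS arrays and 420.0 and 333 on the tumor arrays. Both tumor arrays lay below the others, and the change was -1.71 ± 0.21 (SE, adjusted p = 0.00144). Cyp2d34 gave 778 and 1039 on the control arrays, 816 and 864 on the DSS arrays and 298 and 281 on the tumor arrays, a change of -1.58 ± 0.19 (SE, adjusted p = 0.00145). In Cyp2d12 the intensities were 234 and 558 on the control arrays, 268 and 348 on the DSS arrays and 28.4 and 39.3 on the tumor arrays. Its control arrays differed more than 2-fold from each other, yet the tumor arrays stayed below both. The change was -2.89 ± 0.38 (SE, adjusted p = 0.00199), or -1.76 with the pseudocount at the median of all values. Cyp2d9, a testosterone hydroxylase of male mouse liver, measured 322 and 262 on the control arrays, 203 and 199.6 on the DSS arrays and 79.7 and 64.2 on the tumor arrays. All 3 groups were apart, in the order control, DSS, tumor, and its tumor change was -1.79 ± 0.22 (SE, adjusted p = 0.00162), or -1.15 with that pseudocount. Cyp2d26 measured 329 and 365 on the control arrays, 232 and 295 on the DSS arrays and 131 and 85.8 on the tumor arrays, with the same order of groups and a change of -1.56 ± 0.24 (SE, adjusted p = 0.00445).

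Cyp2d13 has a pair of probe sets, and both fell. The first measured 123 and 220.2 on the control arrays, 80.2 and 139.8 on the DSS arrays and 3.73 and 8.71 on the tumor arrays, and the second 111 and 167 on the control arrays, 98.0 and 130.3 on the DSS arrays and 38.0 and 29.2 on the tumor arrays. Tumor values of the first lie below the added 17.7, so that its change of -2.94 ± 0.39 (SE, adjusted p = 0.00212) became -4.61 when 1 was added in its place and -1.28 with a pseudocount at the median. The second changed by -1.60 ± 0.31 (SE, adjusted p = 0.0102), or -0.80 with a pseudocount at the median. Its call ended without control replicate 2 (-1.34) and without tumor replicate 2 (-1.47). Cyp2d22, often taken as the mouse gene most like human CYP2D6, measured 104 and 117 on the control arrays, 79.9 and 138 on the DSS arrays and 19.6 and 27.5 on the tumor arrays on its tested probe set. DSS arrays spanned the control values and tumor arrays were apart. The change was -1.64 ± 0.33 (SE, adjusted p = 0.013), or -0.73 with a pseudocount at the median, and its call ended without control replicate 2 (-1.56). A second Cyp2d22 probe set, just under the filter, measured 78.7 and 109.7 on the control arrays, 92.0 and 106 on the DSS arrays and 13.7 and 18.8 on the tumor arrays. It was called lower, at -1.71, when no filter was set.

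Among single genes of family 2, Cyp2s1, an enzyme of epithelia outside the liver that can oxidise retinoic acid, measured 688 and 574 on the control arrays, 768 and 823 on the DSS arrays and 136 and 140.1 on the tumor arrays. The groups were apart, with DSS highest, and the tumor change was -2.05 ± 0.18 (SE, adjusted p = 0.000355). Cyp2f2, which activates naphthalene in mouse airway club cells, gave 492 and 476 on the control arrays, 724 and 599 on the DSS arrays and 159.5 and 109 on the tumor arrays. It showed the same order of groups and a change of -1.74 ± 0.22 (SE, adjusted p = 0.00166). Cyp2j6, of a subfamily of fatty acid epoxygenases, was the only probe set above the median in all groups that was higher on both tumor arrays. Its intensities were 354 and 379 on the control arrays, 315 and 383 on the DSS arrays and 569 and 481 on the tumor arrays, and its change of 0.49 ± 0.19 (SE, adjusted p = 0.108) did not pass, with values of 0.24 to 0.61 under the other settings. The other 4 Cyp2j probe sets, for Cyp2j5, Cyp2j9 and Cyp2j13, were under the median on every array.

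Cyp2b10, in mouse liver a target of the nuclear receptors CAR and PXR, rose in tumor crypts. The tested probe set measured 8.94 and 36.3 on the control arrays, 11.6 and 34.5 on the DSS arrays and 320.1 and 193 on the tumor arrays. Control and DSS values are near the floor, and only the tumor arrays exceed their medians. The change was 2.81 ± 0.48 (SE, adjusted p = 0.00594), or 1.47 with a pseudocount at the median of all values. As the probe set passed the filter through the tumor arrays alone, its difference was favoured by the filter, and it was not tested without either tumor array. Its other probe sets measured 24.3 and 47.1 on the control arrays and 179.9 and 91.7 on the tumor arrays, and 8.64 and 19.9 on the control arrays and 211 and 112 on the tumor arrays. Both tumor arrays were higher on all 3 probe sets, and without a filter 1 more of them was called, at 2.45. Cyp2b13 and Cyp2b19 also had higher tumor values, 0.933 and 7.44 on the control arrays and 24.97 and 21.7 on the tumor arrays for Cyp2b13 and 2.51 and 0.658 on the control arrays and 13.2 and 10.7 on the tumor arrays for Cyp2b19. These are far under the array medians, and Cyp2b13 was called only without a filter, at 0.92. Cyp2b9 measured 13.0 and 12.1 on the control arrays and 11.9 and 7.48 on the tumor arrays, so that not every Cyp2b probe set was higher.

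In family 3, 1 of 5 probe sets was tested. Cyp3a13, the Cyp3a enzyme of mouse intestine, measured 1990.4 and 2942 on the control arrays, 1655 and 1749 on the DSS arrays and 461 and 331 on the tumor arrays. DSS arrays lay below control arrays and tumor arrays below both, and the tumor change was -2.58 ± 0.24 (SE, adjusted p = 0.000439). Cyp3a11, Cyp3a16, Cyp3a25 and Cyp3a44, best known from mouse liver, stayed between 0.143 and 17.3 on all arrays. Family 1 was under the median on every array. Cyp1a1, the classical target of the aryl hydrocarbon receptor, measured 13.5 and 17.4 on the control arrays, 28.5 and 22.2 on the DSS arrays and 7.34 and 21.6 on the tumor arrays, and Cyp1a2 1.14 and 2.52 on the control arrays, 12.8 and 16.4 on the DSS arrays and 1.73 and 1.10 on the tumor arrays. The DSS arrays were the highest for both, at values far under the array medians. The 3 probe sets of Cyp1b1, a P450 of mesenchymal cells, stayed between 0.231 and 26.5. Cyp2e1, the ethanol-inducible P450 of liver, stayed between 1.70 and 23.4. Its values were 12.0 and 14.1 on control, 1.70 and 17.8 on DSS and 23.4 and 15.1 on tumor arrays. Both tumor arrays exceeded both control arrays. None of these was tested.

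Family 4 had 6 of 12 probe sets tested, for 4 genes, and 5 of them fell in tumor crypts. Those of Cyp4f13 and Cyp4f14, the _x_at one of Cyp4f16 and the Cyp4v3 one not ending in _s_at exceeded the median on no tumor array. Their lower tumor values were thus favoured by the filter. Cyp4f14, which hydroxylates leukotriene B4 in the mouse, measured 417 and 459 on the control arrays, 149 and 359 on the DSS arrays and 88.9 and 51.2 on the tumor arrays. Both DSS values were below control, with a wide gap between them, and the tumor values were lowest. The change was -2.41 ± 0.39 (SE, adjusted p = 0.0048). Cyp4f13 gave 178 and 175 on the control arrays, 192 and 195 on the DSS arrays and 90.7 and 84.8 on the tumor arrays, close within each group. Its change of -0.88 ± 0.21 (SE, adjusted p = 0.024) is small, at -0.54 with a pseudocount at the median, and its call ended whichever array was left out, at -0.84 to -0.92. Cyp4f16 measured 429.8 and 381 on the control arrays, 287 and 243 on the DSS arrays and 215 and 232 on the tumor arrays on its first probe set. It changed by -0.81 ± 0.19 (SE, adjusted p = 0.0226), a call that ended without control replicate 1 (-0.72), control replicate 2 (-0.89), tumor replicate 1 (-0.76) or tumor replicate 2 (-0.86). The second, of the _x_at kind, measured 185 and 105 on the control arrays, 147 and 112 on the DSS arrays and 75.2 and 82.1 on the tumor arrays and at -0.71 ± 0.31 (SE, adjusted p = 0.141) was not called. Cyp4v3, the mouse counterpart of the human fatty acid hydroxylase CYP4V2, measured 419 and 479 on the control arrays, 636 and 485 on the DSS arrays and 195 and 206 on the tumor arrays on the probe set ending in _s_at. Its tumor values were below all others, with a change of -1.10 ± 0.20 (SE, adjusted p = 0.008) and a call that ended without control replicate 2 (-1.002). The other Cyp4v3 probe set measured 132 and 197 on the control arrays, 194 and 205 on the DSS arrays and 74.9 and 74.6 on the tumor arrays. It changed by -0.95 ± 0.25 (SE, adjusted p = 0.0337), or -0.57 with a pseudocount at the median, and its call ended without any single array but control replicate 1, at -0.70 to -0.96. Cyp4a12a, Cyp4a14 and Cyp4a31, best known from mouse liver and kidney, stayed between 0.239 and 24.4. Cyp4b1 measured 5.85 and 38.3 on control, 17.8 and 48.1 on DSS and 15.4 and 31.6 on tumor arrays, with all groups overlapping. Cyp4f15 and Cyp4f18 stayed between 0.729 and 27.9.

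**Figure D3:**
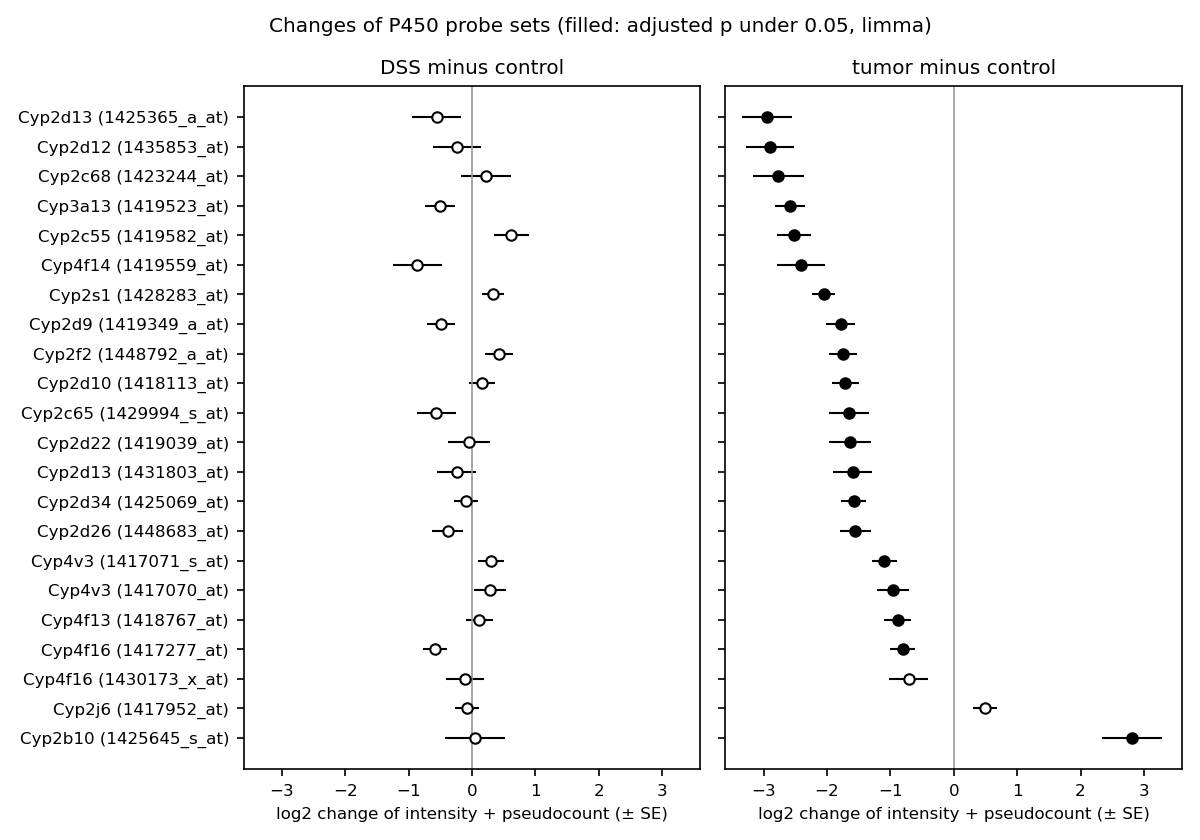
Log2 changes of intensity + pseudocount (x axis, ± SE, 2 arrays a group) of the 22 tested member probe sets in DSS against control crypts (left) and tumor against control crypts (right), with filled points for an adjusted p under 0.05. No point is filled for DSS, where changes ran from -0.86 to 0.62, and 20 are filled for tumor, where they ran from -2.94 to 2.81.

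In DSS crypts no member was called against control. Limma called 0 of 12146 probe sets, or 0%, in either direction, so a count of 0 of 22 members is the background. At an unadjusted p under 0.05 there were 2 members, against 2.34% of all tested. DSS and control arrays did not overlap for 11 members, 5 higher and 6 lower in DSS, where 12.4% and 14.2% of all tested did so. The 5 were Cyp2c55, Cyp2s1, Cyp2f2, Cyp4f13 and Cyp4v3 (on 1 of 2 probe sets), and the 6 were Cyp2c65, Cyp2d9, Cyp2d26, Cyp3a13, Cyp4f14 and Cyp4f16 (on 1 of 2). The changes with smallest p were -0.58 ± 0.19 for Cyp4f16, 0.62 ± 0.27 for Cyp2c55, -0.86 ± 0.39 for Cyp4f14 and -0.49 ± 0.22 for Cyp2d9, each with an adjusted p of 0.99999. Other DSS changes were 0.33 ± 0.18 for Cyp2s1, -0.50 ± 0.24 for Cyp3a13, -0.56 ± 0.31 for Cyp2c65 and -0.07 ± 0.19 for Cyp2j6. Between arrays of the same number the sign of the DSS change was equal in 14 of the 22. The share over all tested probe sets was not counted, so nothing is drawn from this number. A fit of DSS and control alone blocked by replicate number, a setting chosen after seeing the data, called 2 members, Cyp2c55 and Cyp4f14, and 1.6% of all tested. It rests on 1 residual degree of freedom and on variances pooled over probe sets.

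Set against DSS crypts, 18 of the 22 were lower in tumor crypts and 1, Cyp2b10, higher, where 9.74% and 13.3% of all tested were called. This comparison shares the tumor arrays with the one against control. Cyp2c55 had a change of -3.14 ± 0.27 (SE, adjusted p = 0.000304) and Cyp2s1 of -2.38 ± 0.18 (SE, adjusted p = 0.000179). Cyp4f16, which was called against control on its first probe set, had -0.22 ± 0.19 (SE, adjusted p = 0.434) against DSS. Without DSS replicate 2 the lower count was 11, where 4.46% of all tested were called lower, and without a tumor array Cyp2b10 was not tested, which left 0 higher.

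Other genes of the P450 system, from lists chosen with earlier results known, were counted by the probe set of highest mean per gene. Of 11 regulators tested 1 rose and 1 fell, and of 5 redox partners 1 fell. Of 2 epoxide hydrolases 1 rose and 1 fell, and of 10 heme genes 2 rose. Across all probe sets 11.2% were called higher and 8.33% lower, or 12.9% and 9.75% in a fit with 1 probe set a gene. The vitamin D receptor Vdr, which with its ligand drives intestinal P450 genes, measured 1602 and 1908 on the control arrays and 469 and 486 on the tumor arrays. Tumor arrays were far below control, with a log2 change of -1.83 ± 0.17 (SE, adjusted p = 0.000429), with -1.94 ± 0.17 on its other probe set. Hnf4a, a nuclear receptor of gut and liver epithelium, fell on 1 of 4 probe sets, which measured 2345 and 2235 on the control arrays and 1215 and 1071 on the tumor arrays and changed by -0.99 ± 0.17 (SE, adjusted p = 0.00576). Its probe set of highest mean, at -0.74 ± 0.22 (SE, adjusted p = 0.0532), missed the threshold. Nr1i2, the xenobiotic receptor PXR, measured 252 and 208 on the control arrays and 132 and 93.0 on the tumor arrays on 1 probe set, a change of -0.94 ± 0.25 (SE, adjusted p = 0.0362), and its other one, of higher mean, missed the threshold (adjusted p = 0.109). Ahr, the aryl hydrocarbon receptor, measured 476 and 438 on the control arrays and 675 and 896 on the tumor arrays, a change of 0.75 ± 0.19 (SE, adjusted p = 0.0309). It was 0.50 and not called with each array centred on its median. Ahr calls also ended without control replicate 1 (0.80), control replicate 2 (0.69), DSS replicate 1 or 2 (0.75 each) and tumor replicate 2 (0.55). Nr1i2's call ended without control replicate 1 (-0.81), control replicate 2 (-1.07), DSS replicate 1 (-0.94) and tumor replicate 2 (-0.72), and its change was -0.62 with a pseudocount at the median.

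Among enzymes that act beside the P450s, Ephx1, the microsomal epoxide hydrolase, measured 181 and 249 on the control arrays and 441 and 468 on the tumor arrays, and Ephx2, the soluble one that opens fatty acid epoxides, 258 and 399 on the control arrays and 144 and 178 on the tumor arrays. They moved apart: Ephx1 changed by 1.04 ± 0.20 (SE, adjusted p = 0.0113) and Ephx2 by -0.93 ± 0.24 (SE, adjusted p = 0.0327). The call ended for Ephx1 without tumor replicate 2 (1.00), and for Ephx2 without control replicate 2 (-0.63), DSS replicate 1 or 2 (-0.93 each), tumor replicate 1 (-0.79) or tumor replicate 2 (-1.07). Of the heme genes, Alad, an early enzyme of heme synthesis, rose by 0.87 ± 0.17 (SE, adjusted p = 0.011) and Blvrb, a biliverdin reductase, by 1.21 ± 0.18 (SE, adjusted p = 0.00307). Alad was not called without control replicate 2 (0.76) or tumor replicate 2 (0.84), nor with each array centred on its median (0.62). Cpox and Urod, further enzymes of heme synthesis, had changes of -0.50 ± 0.24 and 0.32 ± 0.19 and were not called, but Cpox was called lower with quantile normalization (-0.72, adjusted p = 0.0499) and with each array centred on its median (-0.75, adjusted p = 0.0476). The mitochondrial electron carrier Fdx1 fell by 0.63 on the log2 scale (adjusted p = 0.0382), a call that ended without any single array but tumor replicate 1, at -0.47 to -0.73. It also ended at the same change with no filter (adjusted p = 0.0612), without an intensity trend (0.063), with 2 groups in the fit (0.073) and with 2 groups and the replicate block (0.0789). Pgrmc1, Cyb5a and Cyb5r3, partners at the endoplasmic reticulum, were not called, at -0.55 ± 0.18, -0.46 ± 0.19 and 0.29 ± 0.19. With each array centred on its median Pgrmc1 was called lower (-0.80, adjusted p = 0.0462).

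P450 genes outside families 1 to 4, many of them enzymes of sterol and bile acid metabolism, had 20 probe sets for 14 genes, and by the probe set of highest mean 3 genes were tested. Cyp27a1, the sterol hydroxylase of mitochondria, rose by 1.05 ± 0.27 (SE, adjusted p = 0.0292), while Cyp39a1 at -0.38 ± 0.25 and the lanosterol demethylase Cyp51 at 0.24 ± 0.27 were not called. Cyp27a1 measured 241 and 403 on the control arrays and 617 and 719.8 on the tumor arrays. Its call ended without control replicate 1 (0.70), tumor replicate 1 (1.16) or tumor replicate 2 (0.94), and with each array centred on its median (0.80). With 3 genes tested, 1 higher and 0 lower stand beside 11.2% and 8.33% of all probe sets. With 1 probe set a gene in the fit those shares were 12.9% and 9.75%. The difference from families 1 to 4 was not tested.

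**Figure D4:**
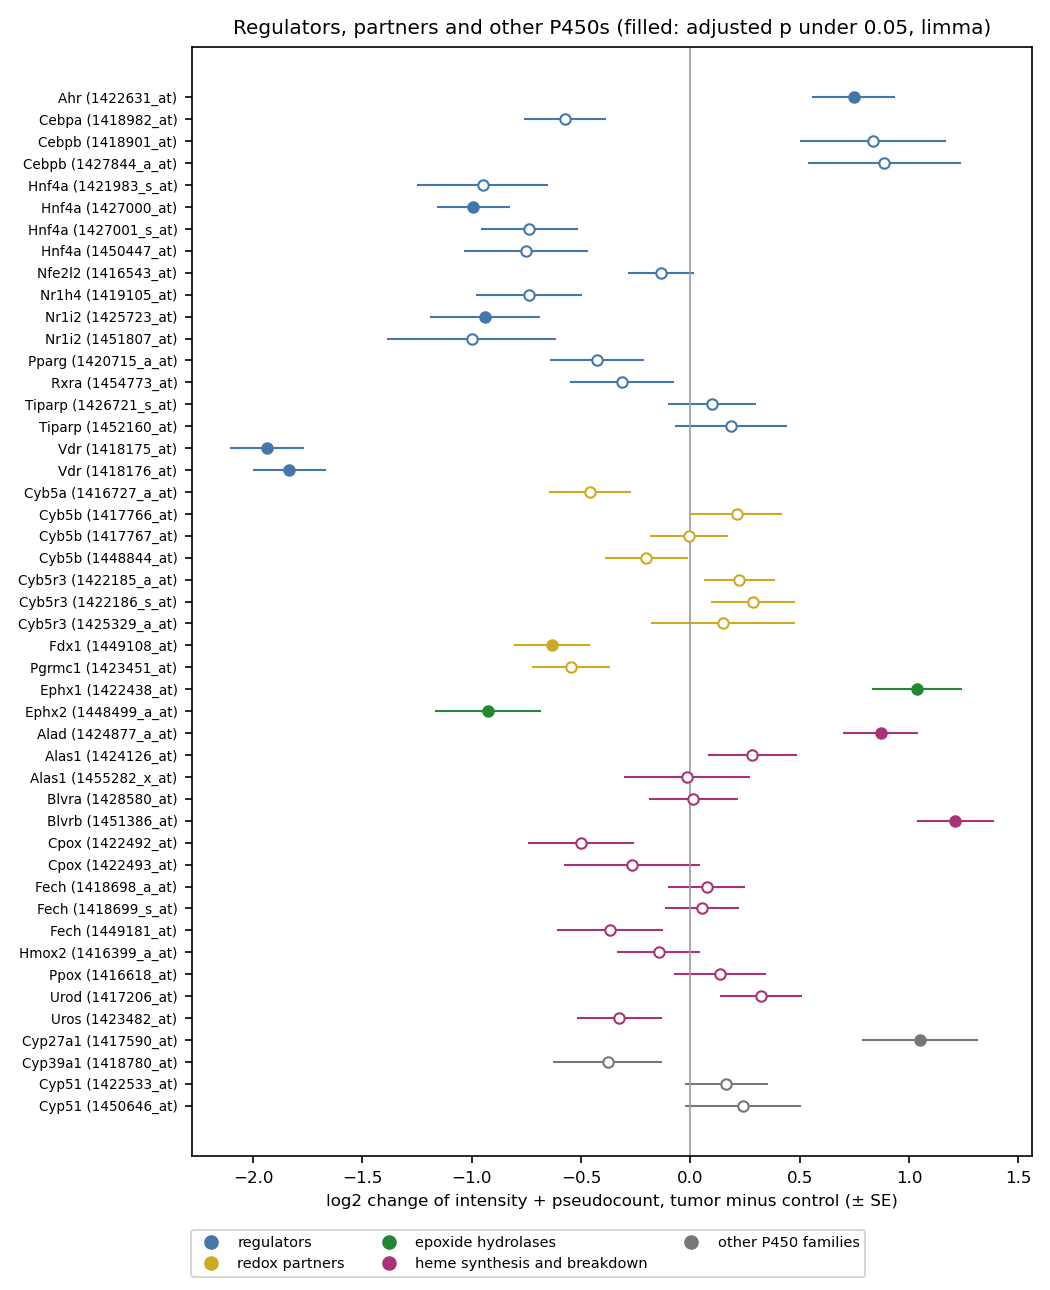
Log2 changes of intensity + pseudocount in tumor against control crypts (x axis, ± SE, 2 arrays a group) for every tested probe set of the regulators, redox partners, epoxide hydrolases, heme genes and other P450 families, with filled points for an adjusted p under 0.05. Both Vdr probe sets lie near -1.9, and Ephx1 and Ephx2 are called on opposite sides of 0.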

How the data were processed

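The deposited table gave 1 linear MAS5 intensity for each probe set on 6 single-colour arrays with biotin label. Per the submitters' processing notes MAS5 was used; its version is not given in the sources used here. The mean of each array without the highest and lowest 2% was near 500.2, as computed from the values. No detection calls were used here, and the number of arrays limits the precision. Of 22690 probe sets 64 controls were set aside. Of the rest 20380 had 1 symbol, 691 several and 1555 none. All 49 member symbols matched the RefSeq symbol of their gene ID. 

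Intensities were transformed as log2(intensity + 17.7), the 25th percentile of all values. Limma 3.58.1 (R 4.3.3) was fitted to the 3 groups with trended variances, per probe set since members are probe sets, and p-values were adjusted by Benjamini-Hochberg over all 12146 tested. Tests were 2-sided. No further normalization was applied. Members, lists, motifs and settings were chosen with earlier results of these data known. The rule for values on every array was the 12 largest falls and rises called in tumor crypts, the 4 members of smallest p in DSS and a fixed set of genes; the other members with such values (among them the second probe sets of Cyp2d13 and Cyp2d22, Cyp2d26, Cyp2d34, Cyp4f13, Cyp4f16, Cyp2c38, Cyp2c70, Cyp1a2 and the low Cyp2b probe sets) were chosen after their values were seen. Up to 4 genes of smallest p come from each other list. Marker lists covered epithelium, colonocytes, fibroblasts, endothelium, smooth muscle, leukocytes, hepatocytes and adipocytes. Of adipocyte genes 1 was tested and not called. The fit was tested on 10 simulated data sets, each with 200 changed probe sets, for tumor against control. It recovered 28.1% of log2 changes of 1 and 84.5% of log2 changes of 2, with 4.9 false calls on average. In that setting many changes of about 1 were missed. It changed 200 of 12146 probe sets, where 1366 were called higher and 1012 lower in the data. The rates for the data may therefore differ. Matplotlib 3.10.9 in Python 3.11.15 drew the figures.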

Additional observations from a re-analysis of the deposited data

How the results depend on the processing

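With 2 arrays a group, MAS5 signals near the floor and no detection calls, low members cannot be resolved. With quantile normalization, median centring, either pseudocount, no intensity trend and the replicate block, the 19 lower and 1 higher calls in tumor against control were the same probe sets. Median centring moved the median of all tested from 0.03 to -0.21, that of the members from -1.65 to -1.89, and the share of all calls that were higher from 57.4% to 34.3%. Replicate numbers came from the labels, which name no shared batch, and the differences between replicates 1 and 2 correlated across probe sets at 0.48 for control and DSS, 0.13 for control and tumor and 0.47 for DSS and tumor. With the replicate block in the fit of 3 groups, 0 members were called in DSS (0% of all tested). In tumor against control 19 were lower and 1 higher, where 10.5% and 13.8% of all tested were called. With the block and 2 groups alone, 2 were called in DSS (1.6% of all tested) and 2 higher in tumor against DSS (21.9%).

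At the 75th percentile 7 members remained, with 7 lower and 0 higher in tumor against control (12.7% and 11.7% of all tested) and against DSS (14.6% and 14%). Above the median on all 6 arrays 9 remained, with 8 (8.16% of all tested) and 7 (9.82%) lower and 0 higher (8.89% and 11.6%). A filter on the mean over all arrays, added after the data were seen, kept 18, with 0 higher in either comparison (9.27% and 11.4%). No filter gave 3 of 58 higher against control (5.1%) and 4 against DSS (6.27%). With no filter and with 2 groups in the fit, Cyp4v3 on 1 probe set (adjusted p = 0.0721 and 0.0712) and Cyp4f13 (0.0533 and 0.0597) were tested but not called, so 2 groups gave 17 lower (6.04% of all tested). The calls of Ahr, Nr1i2, Ephx2 and Fdx1 ended under both of these settings and that of Cyp27a1 with no filter. Leaving out 1 array, with the lone array of that group assumed to vary like the others, gave 13 to 17 lower (3.76 to 7.74% of all tested) and 0 to 1 higher (3.16 to 9.37%) against control, 11 to 18 lower (3.77 to 9.62%) and 0 to 1 higher (4.61 to 13.9%) against DSS, and 0 to 0 in DSS against control. The DSS change of Cyp2j6, at -0.07, ran from -0.21 to 0.06 with 1 array left out and was 0.0618 without DSS replicate 1. The tumor change of Cyp51, at 0.24, was -0.00844 with median centring, -0.0225 without control replicate 2 and up to 0.503 without control replicate 1. Single changes of members in tumor against control lost their call in 23 of 381 refits. The 381 include refits of the 2 tested members that had no call to lose. The direction of the changes was kept in all 381, but most refits could not have reversed it. Other filters, variance settings, groups in the fit and the replicate block left the change itself as it was. Tumor and control arrays did not overlap for any tested member, so another pseudocount or leaving out 1 array keeps the sign too. Only quantile normalization and median centring could have reversed a direction.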
